A study of Mus musculus with 3 samples.

Results

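The Toll-like receptor genes examined here were the 10 mouse genes Tlr1 to Tlr9 and Tlr13, chosen by symbol among 55536 annotated genes. They were divided by where the protein works, with 5 receptors of the cell surface (Tlr1, Tlr2, Tlr4, Tlr5 and Tlr6) and 5 of the endosome (Tlr3, Tlr7, Tlr8, Tlr9 and Tlr13). Their messenger RNA was measured in 3 libraries of polyadenylated RNA, each made from 1 µg of RNA of C57BL/6J mouse macrophages, primary cells grown out of bone marrow. All 3 had met lipid A, the TLR4-stimulating anchor of bacterial lipopolysaccharide, at 100 ng/ml for 12 h, had rested for 12 h after washout and had met it again at 100 ng/ml for 480 min. The treatment fields of the labels call the agent lipoprotein A, sex and age were not collected, and 1 donor record covers all libraries. The libraries are replicates 1, 2 and 3 of 1 group, so the data give levels and their spread, which may be technical, and no effect of lipid A.

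Toll-like receptors are membrane proteins whose outer or luminal part binds a microbial molecule and whose TIR domain, on the cytosolic side, recruits adaptor proteins that start inflammatory and interferon signalling. The surface receptors sense molecules of microbial envelopes, lipopeptides for Tlr2 with Tlr1 or Tlr6, lipopolysaccharide for Tlr4 and flagellin for Tlr5. The endosomal receptors sense nucleic acids after uptake, and macrophages are known to use both kinds.

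Replicate 2 stood apart from the other libraries. It held 54016971 expected counts against 24596382 in replicate 1 and 43127749 in replicate 3, and mitochondrially encoded mRNA took 6.86% of its counts against 1.06% and 1.13%. All 8 macrophage markers (among them Adgre1, Csf1r, Cd68 and Lyz2) reached 1 TPM in every library and summed to 15048, 13433 and 16269 TPM in replicates 1, 2 and 3. Lyz2 made up most of that sum, with 10132, 7385 and 10684 TPM, and single markers differed more. Cd68 was highest in replicate 2 (1980, 3862 and 2063 TPM) and Fcgr1 was lowest there (741, 329 and 720 TPM). TPM, a transcript abundance scaled to a fixed sum, is a level corrected for transcript length and library size. Summed levels of the markers of other cells were 1.99 to 3.92 TPM for B cells. Of their 6 genes, 1 was at 1 TPM or more in every library (Cd79b, with 1.59, 1.76 and 3.22 TPM), and Cd79a was listed at 0. Summed levels were 3.61 to 10.7 TPM for plasmacytoid dendritic cells (1 of 5 genes, Cox6a2). They were 0.62 to 0.91 TPM for conventional dendritic cells (0 of 6 genes, Cd209a listed at 0) and 3.83, 16.9 and 5.44 TPM for neutrophils (2 of 7 genes, S100a8 and S100a9, with Ly6g listed at 0). T, natural killer and mast cells and fibroblasts had no marker at 1 TPM in every library. These sums touch the receptors below in that replicate 2 was highest for 7 receptors and for the neutrophil sum. It was also highest for the small sums of T and natural killer cells (0, 0.94 and 0.08 TPM), mast cells (0, 0.04 and 0 TPM) and fibroblasts (0.32, 0.67 and 0.66 TPM). The sums of B cells and of plasmacytoid and conventional dendritic cells were highest in other libraries. The neutrophil sum lay mostly in S100a8 (1.27, 6.91 and 2.45 TPM) and S100a9 (1.83, 9.64 and 2.61 TPM). Of the other neutrophil markers, all under 1 TPM, Mpo was also highest in replicate 2. Camp was highest in replicate 1, and Elane and Cxcr2 in replicate 3. The part of the marker sums in the receptor levels was not tested.

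The sequences bear on which levels can be told apart, since Tlr1 and Tlr6 lie 18467 bases from each other on the minus strand of chromosome 5 and are close relatives. Their coding sequences, 2385 bases in Tlr1 and 2418 in Tlr6, each within a single exon, were identical at 73.3% of the columns of a global alignment. With the alignment cut into 3 equal sections, identity was 56.2% in the first, which encodes part of the outer domain, and 91.5% in the last, which encodes the TIR domain. The longest identical run was 229 bases, in the coding exon of both, at chr5:64925537-64925765 in Tlr1 and at chr5:64953828-64954056 in Tlr6 (mm10, minus strand). It is shown because a read that falls inside it cannot be assigned by its letters.
Tlr1 and Tlr6, identical run: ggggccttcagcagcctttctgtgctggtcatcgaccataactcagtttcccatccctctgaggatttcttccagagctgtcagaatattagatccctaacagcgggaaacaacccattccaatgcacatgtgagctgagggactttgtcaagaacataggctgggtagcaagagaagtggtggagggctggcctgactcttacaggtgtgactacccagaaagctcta
The gap-free stretch of 120 aligned bases with the fewest matches, at chr5:64926394-64926513 in Tlr1 and chr5:64954685-64954804 in Tlr6 (minus strand), differed at 55 bases, written here in capitals. It is shown because reads there tell the genes apart.
Tlr1: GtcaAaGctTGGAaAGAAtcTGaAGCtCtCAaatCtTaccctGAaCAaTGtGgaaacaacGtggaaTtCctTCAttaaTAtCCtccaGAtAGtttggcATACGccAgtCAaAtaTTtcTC
Tlr6: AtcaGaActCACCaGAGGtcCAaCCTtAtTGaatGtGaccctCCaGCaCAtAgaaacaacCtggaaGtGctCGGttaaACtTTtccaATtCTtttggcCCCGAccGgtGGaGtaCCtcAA
Of the 3322 distinct runs of 31 bases in the Tlr1 transcripts, 607 (18.3%) also occurred in Tlr6 transcripts, which is 16.4% of the runs of Tlr6. Tlr2, Tlr5, Tlr7, Tlr8, Tlr9 and Tlr13 shared no such run with another gene, Tlr4 shared 0.667%, and Tlr3 shared 6.10% with its antisense neighbour Gm45542. That antisense gene had 0, 3 and 0 expected counts, and whether strand was used in counting is not given in the sources used here. The uncertainty of read assignment deposited with the counts, a posterior SD, was 5.60, 5.11 and 6.52 counts in replicates 1, 2 and 3 for both Tlr1 and Tlr6 and 0 for the other 8 receptors.

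Macrophages held mRNA of 9 of the 10 receptors at 1 TPM or more, and also at 10 TPM or more, in every library, Tlr5 being the exception. Of 22028 protein-coding genes, 42.9% reached 1 TPM and 24.1% reached 10 TPM in every library. Tlr1, Tlr7 and Tlr9 were at 100 TPM or more in every library, 3 of 10 receptors against 4.04% of protein-coding genes. Levels of these 9 genes ran from 32.7 TPM for Tlr4 to 234 TPM for Tlr1 (means of 3 libraries), at the percentiles 68.9 to 94.3 among 10350 protein-coding genes detected in at least 1 library, whose median was 15.1 TPM. In bulk RNA, fewer cells with a transcript and less transcript per cell cannot be told apart.

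**Figure D1:**
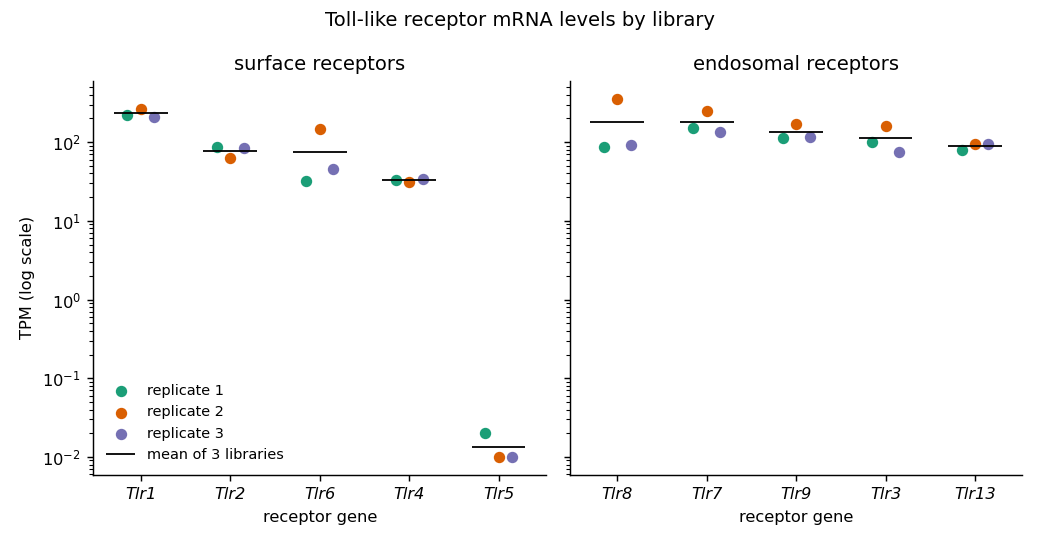
Level of each Toll-like receptor gene in TPM on a log axis, surface receptors on the left and endosomal receptors on the right. Points are the 3 libraries and the horizontal bars their means. Tlr5 lies at 0.02 TPM or below, the other surface receptors spread from 31.5 to 266 TPM, and the endosomal receptors lie between 74.1 and 354 TPM, with replicate 2 highest in all 5.

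Tlr1 (ENSMUSG00000044827.10, chr5:64924679-64933563, minus strand), which pairs with Tlr2 to bind triacylated lipopeptides, was the highest receptor by mean, although Tlr8 exceeded it in replicate 2 and they were not separated. It stood at 224, 266 and 211 TPM in replicates 1, 2 and 3 (234 ± 28.6 TPM, SD, n = 3). The 3 libraries lay within 1.26 times of each other, and Tlr1 made up 59.9%, 52.5% and 56.2% of the summed surface receptor level. Tlr2 (ENSMUSG00000027995.10, chr3:83836272-83841767, minus strand), the shared partner of the lipopeptide receptors, had 85.7, 62.0 and 84.8 TPM (77.5 ± 13.4 TPM). In TPM replicate 2 was the lowest library for Tlr2 and the highest for both of its partners. Tlr2 stood there at 0.727 of its mean in the other libraries, near the median ratio of 0.774 over detected genes. In CPM, explained with Tlr6 below, Tlr2 had 162.8, 150.9 and 150.4 in replicates 1, 2 and 3. Replicate 2 was thus not its lowest library in counts. Within every library Tlr2 lay below Tlr1, by −1.60 ± 0.43 on the log2 scale, that is at 0.330 of the level of Tlr1.

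Such ratios are log2 differences of TPM + 0.1 within a library. They are called separated where all 3 libraries have the same sign and the mean lies beyond 3 SD. No p-value is attached, since with 3 libraries the smallest p that exact sign flips can give is 0.25. By this rule Tlr2 and Tlr1 were separated.

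Tlr6 (ENSMUSG00000051498.6, chr5:64952031-64960097, minus strand), which pairs with Tlr2 to bind diacylated lipopeptides, had 31.7, 147 and 45.6 TPM (74.7 ± 62.7 TPM). Replicate 2 was 3.22 times the higher of the other libraries, and the mean rests on it. As plain counts, Tlr6 differed less, with 54.0, 73.4 and 51.9 CPM (counts scaled to library sizes corrected by the TMM method, with no regard to length). The gap between both scales lay in the transcript models to which the reads were assigned. Model Tlr6-202, of 446 bases with an incomplete coding sequence of 340 bases, stood at 9.37, 131 and 23.3 TPM, while Tlr6-201, of 3677 bases with the whole coding sequence, stood at 22.4, 15.7 and 22.4 TPM. The short model thus took 29.5%, 89.3% and 51.0% of the gene's TPM from 31, 1243 and 125 of its 1332, 3499 and 2507 expected counts. A read adds more TPM to a short model than to a long one, so 1243 counts on the short model outweighed the rest of the gene in replicate 2.

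Measured over complete models only (those holding at least 95% of the gene's longest coding sequence, a choice made after seeing the data), Tlr6 was at 20.1 ± 3.83 TPM and replicate 2 was its lowest library. Such a low place is common, since the median TPM ratio of replicate 2 to the other libraries was 0.774 over detected genes. With complete models, ratios of lipopeptide receptor partners also changed. Tlr2 over Tlr6 was 1.43, −1.24 and 0.89 in log2 for whole genes (0.36 ± 1.41, not separated) and 1.93, 1.97 and 1.92 for complete models (1.94 ± 0.03, separated). Tlr1 over Tlr6 was 1.96 ± 1.00 for whole genes, not separated, and 3.44 ± 0.50 for complete models, separated. With complete models the lipopeptide receptors therefore ran Tlr1, Tlr2, Tlr6 from high to low in each library. For Tlr1 itself both coding models were complete, Tlr1-201 with 60.8%, 72.4% and 64.1% and Tlr1-202, which starts farther upstream, with 31.7%, 23.5% and 27.2% of the gene.

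Tlr4 (ENSMUSG00000039005.13, chr4:66827584-66930284, plus strand), the receptor of the lipid A used here, had the steadiest whole-gene level in the first quantification. It stood at 32.8, 31.5 and 33.7 TPM (32.7 ± 1.14 TPM), the lowest mean of the 9 receptors above 1 TPM. Its spread between libraries, 1.68% in CPM, was of the size of counting error alone, 1.81%. In a second quantification of the same reads Tlr4 varied more, with 22.1, 32.1 and 30.5 TPM. In replicate 2 the non-coding model Tlr4-204 took 22.9% of the gene, so that the complete model Tlr4-201 stood at 32.4, 24.2 and 33.5 TPM. Tlr2 exceeded Tlr4 in every library, by 1.23 ± 0.22 in log2 (a ratio of 2.34), which was separated. Tlr5 (ENSMUSG00000079164.8, chr1:182954788-182976044, plus strand), the flagellin receptor, had 1 expected count in each library, or 0.02, 0.01 and 0.01 TPM. The exact 95% Poisson interval of 1 count runs from 0.0253 to 5.57 counts and covers counting error only, so Tlr5 mRNA was at the limit of these libraries.

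Among the endosomal receptors, Tlr3 (ENSMUSG00000031639.12, chr8:45395665-45411080, minus strand) binds double-stranded RNA and signals through the adaptor Ticam1. It had 99.3, 161 and 74.1 TPM (111 ± 44.7 TPM), with replicate 2 on top. Its model Tlr3-205, which starts at position 45410380, took 37.1%, 65.3% and 41.4% of the gene. Tlr3-201, which starts upstream at 45410619 and encodes the same 2715 bases, took 34.6%, 3.96% and 25.1%. At its other end Tlr3-201 also runs farther, to 45395665 against 45395878 for Tlr3-205. Replicate 2 thus differed from the others in the model to which Tlr3 reads were assigned, which these shares do not place at either end. In the second quantification, made from the same reads, Tlr3-205 also led but with less difference, at 66.8%, 72.8% and 60.1%. The single-exon model Tlr3-206, with 918 coding bases, took between 22.8% and 27.6% of the gene.

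Tlr7 and Tlr8, receptors of single-stranded RNA and its breakdown products, are neighbours on the X chromosome, 40599 bases apart. Tlr7 (ENSMUSG00000044583.13, chrX:167304929-167330558, minus strand) had 152, 247 and 135 TPM (178 ± 60.2 TPM). Complete models, led by Tlr7-201, held 85.0%, 93.3% and 81.7% of its TPM. Tlr8 (ENSMUSG00000040522.5, chrX:167242696-167264329, minus strand) had 86.9, 354 and 92.4 TPM (178 ± 153 TPM), so its mean equalled that of Tlr7 only through replicate 2.

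A short model carried part of the difference, whereas in Tlr6 replicate 2 was no longer the highest library without the short model. Tlr8-203, of 485 bases with 301 coding bases, stood at 3.76, 209 and 6.94 TPM and took 4.33%, 59.0% and 7.52% of the gene. That came from 15, 2319 and 45 of the gene's 3685, 19564 and 7299 expected counts. It joins the first exon straight to the last one and lacks the exon that holds the start codon of Tlr8-202. The junctions are shown because they differ between the models, 15 bases on each side, with the exon after the junction in capitals. The exon on the right begins at position 167245849 of chromosome X in both (mm10, minus strand), and the exon on the left is 167263749 to 167263890 in Tlr8-202 and 167264152 to 167264329 in Tlr8-203.
Tlr8-202: tgtctatagaacatgGAAAACATGCCCCCT
Tlr8-203: cccagccagaaagggGAAAACATGCCCCCT
The 3 bases before the junction of Tlr8-202 are its start codon, which Tlr8-203 does not have at that place. The annotated coding sequence of Tlr8-203 begins instead at position 167245843, at the ATG of the exon on the right. It stops at 167245543, short of the rest of the coding sequence. Over complete models Tlr8 stood at 69.8, 133 and 75.2 TPM (92.7 ± 35.1 TPM). Of these, Tlr8-201 took 36.9%, 15.4% and 30.4% of the gene and Tlr8-202 took 43.4%, 22.2% and 51.1%. In the second quantification Tlr8-201 was at 0 in each library and Tlr8-202 took 72.6%, 38.4% and 74.5%. Tlr7 over Tlr8 was 0.28 ± 0.70 in log2 for whole genes, not separated and with replicate 2 of opposite sign, and 0.74 ± 0.17 for complete models, separated. Tlr8 and Tlr6 were both highest in replicate 2 in CPM. In TPM over complete models, replicate 2 was the highest library for Tlr8 and the lowest for Tlr6.

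**Figure D2:**
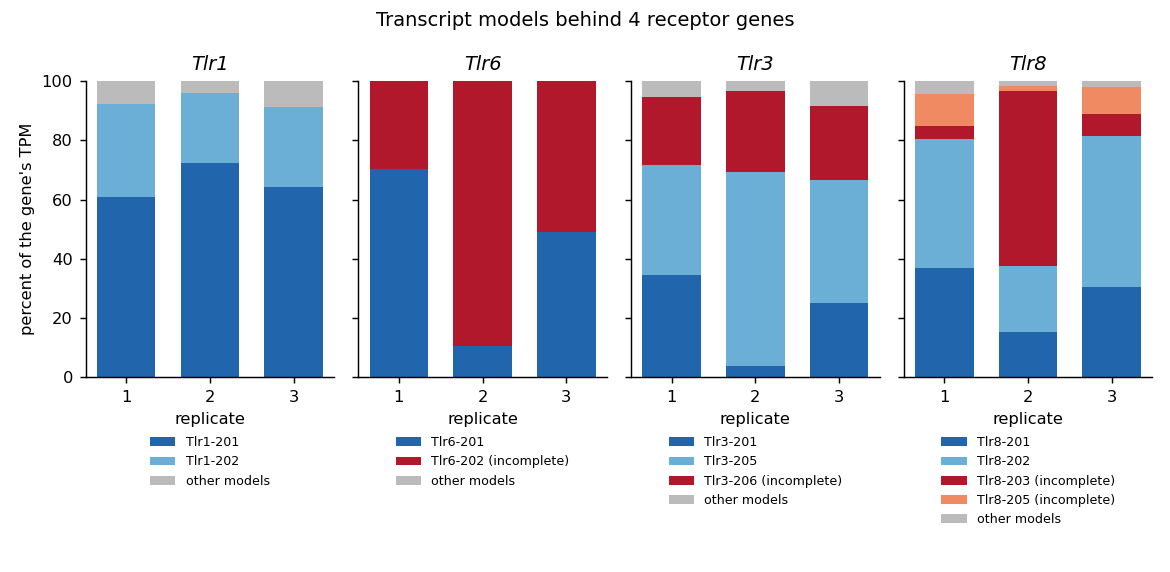
Share of each gene's TPM (percent) by transcript model in replicates 1, 2 and 3, for Tlr1, Tlr6, Tlr3 and Tlr8. Blue bars are models with the complete coding sequence, red and orange bars models without it, and grey bars all models that stay under 10% in each library. In replicate 2 the incomplete model reaches 89.3% of Tlr6 and 59.0% of Tlr8, and Tlr3-201 drops to 3.96%.

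Tlr9 (ENSMUSG00000045322.10, chr9:106222598-106226883, plus strand), the receptor of unmethylated CpG DNA, had 111, 171 and 116 TPM (133 ± 33.1 TPM), all on 1 model. Tlr13 (ENSMUSG00000033777.4, chrX:106143204-106160493, plus strand), which binds bacterial ribosomal RNA, had 79.5, 95.5 and 93.4 TPM (89.5 ± 8.69 TPM). Tlr13 was the steadiest endosomal receptor, and its complete model held 96.3% or more of the gene in every library. Tlr7 exceeded Tlr9 in every library by 0.40 ± 0.16 in log2, which was not separated, and Tlr3 lay below Tlr7 by −0.70 ± 0.14, which was. Tlr3 over Tlr9 (−0.30 ± 0.30) and Tlr13 over Tlr8 (−0.67 ± 1.06) were not separated. Over complete models Tlr7 over Tlr9 was 0.19 ± 0.25, with replicate 3 negative, and Tlr3 over Tlr9 was −0.83 ± 0.35, neither separated. The mouse receptors outside the chosen 10 were scarce, with Tlr11 at 1.00, 2.00 and 1.32 TPM and Tlr12 at 0.30, 0.09 and 0.31 TPM.

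By mean level the order was Tlr1, Tlr8, Tlr7, Tlr9, Tlr3, Tlr13, Tlr2, Tlr6, Tlr4 and Tlr5. Of the 9 neighbouring pairs in this order, only Tlr4 and Tlr5 were separated, so the order from Tlr1 to Tlr4 did not hold beyond the spread between libraries from 1 receptor to the next. Over complete models the order became Tlr1, Tlr7, Tlr9, Tlr8, Tlr13, Tlr3, Tlr2, Tlr4, Tlr6 and Tlr5. There 4 neighbouring pairs were separated, namely Tlr9 over Tlr8, Tlr2 over Tlr4, Tlr4 over Tlr6 and Tlr6 over Tlr5. Without replicate 2, whole genes gave the order Tlr1, Tlr7, Tlr9, Tlr8, Tlr3, Tlr13, Tlr2, Tlr6, Tlr4 and Tlr5, also with 4 separated pairs.

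**Figure D3:**
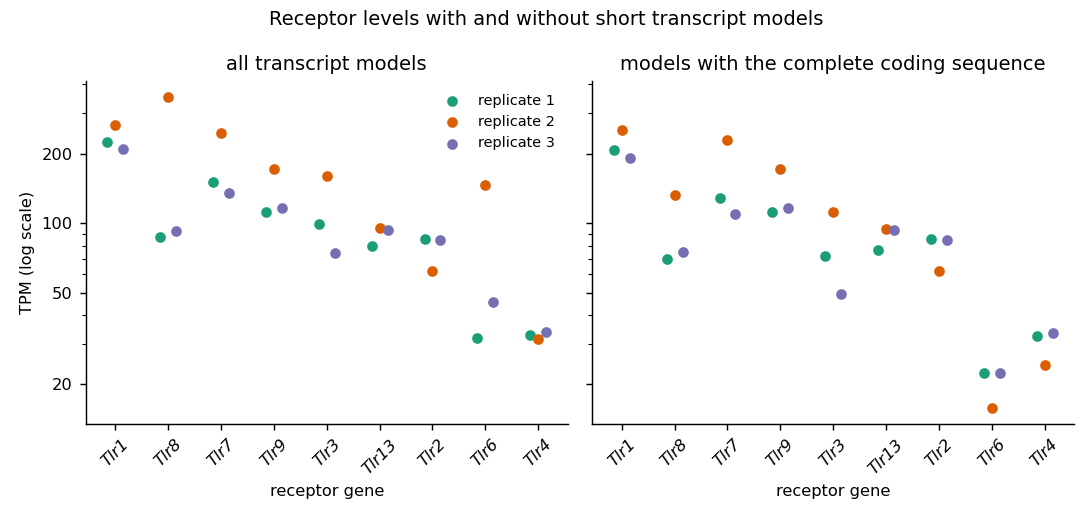
Levels in TPM on a log axis of the 9 detected receptors in each library, over all transcript models (left) and over models with the complete coding sequence (right). Without the short models the replicate 2 point of Tlr6 moves from 147 to 15.7 TPM and that of Tlr8 from 354 to 133 TPM, while Tlr2, Tlr9 and Tlr13 hardly move.

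Endosomal receptors as a class had more mRNA than surface receptors in every library. Their summed level was 529, 1028 and 511 TPM against 374, 506 and 375 TPM for the surface class, that is 1.41, 2.03 and 1.36 times as much. Endosomal receptors made up 58.6%, 67.0% and 57.7% of the receptor total. The log2 ratio of surface to endosomal sums was −0.50, −1.02 and −0.45 (−0.66 ± 0.32), the same sign in 3 of 3 libraries but within 3 SD, so the sums were not separated. Without replicate 2 the ratio was −0.47 ± 0.04, which was separated on 2 libraries.

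The classes were also compared by medians. The median surface receptor stood at 32.8, 62.0 and 45.6 TPM and the median endosomal receptor at 99.3, 171 and 93.4 TPM, a log2 ratio of −1.36 ± 0.29, which was separated. Leaving out Tlr5, which has 1 count a library, brought the median ratio to −0.78 ± 0.17, still separated and close to the ratio of sums. Over complete models it was −1.72 ± 0.65 and not separated. Of the 25 pairs of a surface and an endosomal receptor, the endosomal one was higher in every library in 17 and lower in every library in 4. All 4 of the latter involved Tlr1, against Tlr3, Tlr7, Tlr9 and Tlr13. Tlr4 lay below each of the 5 endosomal receptors in every library. Of the 25 pairs, 11 were separated, 9 with the endosomal receptor higher (5 of them with Tlr5) and 2 with it lower (Tlr9 and Tlr13 against Tlr1). All 25 were of whole genes and were not taken over complete models. Among the 9, Tlr8 over Tlr6 (1.25 ± 0.22 in log2) includes the short models of both genes.

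Replicate 2 was set against the other libraries receptor by receptor. In TMM-scaled CPM, replicate 2 exceeded the higher of the other libraries 2.00 times for Tlr3, 2.27 times for Tlr7, 2.72 times for Tlr8, 1.96 times for Tlr9 and 1.39 times for Tlr13. Among surface receptors the ratio was 1.56 for Tlr1 and 1.36 for Tlr6, against 0.927 for Tlr2 and 0.983 for Tlr4. The ratios of the classes overlapped, Tlr13 lying below Tlr1, and rest on 1 library. Replicate 2 was thus the highest library for 7 of the 10 receptors, all 5 endosomal ones included, where 41.9% of 10350 detected protein-coding genes had their highest CPM there and 27.1% their highest TPM. A ratio of at least 1.5 was found for 5 receptors (Tlr1, Tlr3, Tlr7, Tlr8 and Tlr9) and for 15.4% of detected genes. The high mitochondrial share of replicate 2 and its S100a8 and S100a9 levels moved with this, and their part was not tested.

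**Figure D4:**
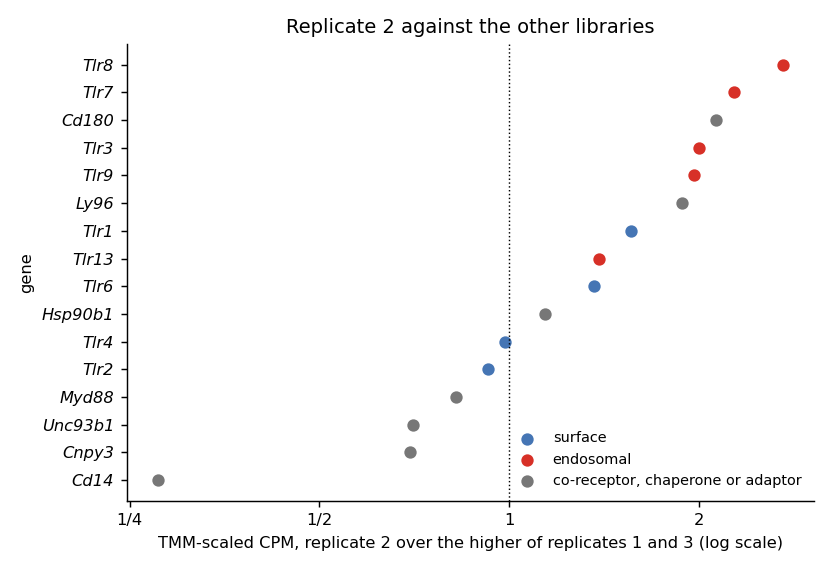
Ratio of replicate 2 to the higher of replicates 1 and 3 in TMM-scaled CPM, on a log axis, for 9 receptors (surface blue, endosomal red) and 7 partner genes (grey). The dotted line marks equal values. Tlr8 and Tlr7 lie farthest right at 2.72 and 2.27, Tlr4 and Tlr2 lie just left of the line, and Cd14 is lowest at 0.277.

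Whether these spreads exceed counting error was tested for all genes kept by a filter on low counts. The chi-square test of homogeneity, with Benjamini-Hochberg adjustment over 11932 genes, called 8 of the 9 receptors tested, and 87.9% of all genes, so the receptors were near the background. Tlr4 was not called (adjusted p = 0.464), Tlr2 was called with an adjusted p of 0.000101, and Tlr5 was not among the genes tested. Tlr6, Tlr8 and Tlr9 were no longer called without replicate 2, which left 5 receptors and 55.0% of genes. In edgeR's quasi-likelihood fit, 0 of 9 receptors had more variance than genes of like abundance at an adjusted p under 0.05, as did 0% of all genes. At an unadjusted p under 0.05 the fit had 0 receptors and 4.22% of genes. Tlr8 came closest, with a one-sided edgeR p of 0.0669 before adjustment. DESeq2 marked 0 of the 9 as dispersion outliers and 0.142% of genes. These tests used counts, and TPM ranked the spreads otherwise. In log2 TPM the SD between libraries was 0.05 for Tlr4, 0.14 for Tlr13 and 0.17 for Tlr1. It was 1.14 for Tlr8 and 1.15 for Tlr6, beside a median of 0.42 for detected genes. In CPM the SD as a percent of the mean was 1.68% for Tlr4, 24.4% for Tlr13 and 32.3% for Tlr1. It was 63.4% for Tlr8 but 19.9% for Tlr6.

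The deposited second quantification of the same reads gave levels close to the first in replicate 2, with 286 TPM for Tlr1 and 61.5 TPM for Tlr2. In replicate 1 it was lower for all 9 receptors, with 163 TPM for Tlr1, 57.8 TPM for Tlr2 and 64.6 TPM for Tlr3. By limma on log2(TPM + 1), 0 of 9 receptors differed from the first at an adjusted p under 0.05 with a log2 difference of at least 1, against 1.66% of 10203 genes. At an unadjusted p under 0.05 there were also 0 receptors, against 6.08% of genes. The test is of the mean difference over 3 libraries, so it cannot show that the levels agree. Differences, second minus first, ran from −0.29 for Tlr3 to 0.07 for Tlr6, around a median of −0.14 for all genes. The short models recurred there, Tlr6-202 at 13.8, 141 and 35.4 TPM and Tlr8-203 at 2.75, 212 and 8.41 TPM. The leading model was the same in both quantifications for 8 of the 10 genes, the exceptions being Tlr5 and Tlr8. Short or incomplete models weighed more in replicate 2 across genes as well. Among 6271 genes averaging 10 TPM or more, they held over 50% of the gene in 32.5% there, against 21.8% in replicate 1 and 21.9% in replicate 3.

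Receptors work with partner proteins, and these were read from lists of co-receptors, endosomal trafficking factors and adaptors. Of the 9 co-receptor and ligand-handling genes, 8 were at 1 TPM or more in every library, and their median level, from the means, was 134 TPM. Cd180, a receptor-like protein related to Tlr4, led with 588, 925 and 666 TPM, and Ly86, its small partner, followed with 395, 494 and 493 TPM. Cd14, which hands lipopolysaccharide to Tlr4, had 381, 100 and 509 TPM and was lowest in replicate 2, and the integrin chain Itgb2 had 235, 225 and 305 TPM. The serum-type carrier Lbp stood at 1.12, 2.83 and 1.04 TPM, and Vtn was listed at 0 in each library.

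The level of Tlr4 lay below that of its binding partner. Ly96, the lipid-binding subunit of the Tlr4 complex, had 82.0, 125 and 106 TPM, that is 2.50, 3.97 and 3.14 times Tlr4. Tlr4 over Ly96 was −1.65 ± 0.33 in log2 and Tlr4 over Cd180 −4.44 ± 0.38, both separated. The first of these depends on the correction for length, since Ly96 mRNA is short. In CPM, which is not per length, Tlr4 over Ly96 was 1.56 ± 0.59.

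The endosomal receptors need the chaperone-like protein Unc93b1 to leave the endoplasmic reticulum, and proteases of the endosome then process several of them. Unc93b1 had 616, 760 and 667 TPM, or 1.17, 0.740 and 1.31 times the summed endosomal receptors. Cnpy3, a folding factor of surface and endosomal receptors, was far lower, at 50.5, 34.1 and 69.6 TPM, and Unc93b1 over Cnpy3 was separated at 3.78 ± 0.63 in log2. Over complete models Unc93b1 stood at 510, 89.2 and 548 TPM, and the ratio, 2.62 ± 1.07, was no longer separated. Of the 23 trafficking and processing genes (22 symbols, Hgs being given to 2 gene records), 21 reached 1 TPM in every library, with a median of 155 TPM.

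Proteases led that list. Ctsb had 7098, 3140 and 7905 TPM, Ctss 4481, 2742 and 4617 TPM, and Lgmn 1455, 1988 and 1558 TPM, all of them lysosomal proteases, followed by the peptide transporter Slc15a3 with 949, 918 and 974 TPM. Over complete models Ctsb stood at 3955, 3139 and 4312 TPM, below Ctss in replicates 1 and 3. Ctsk, a protease best known from osteoclasts, had 1.97, 0.50 and 1.56 TPM, and the ribonuclease Rnase2a 0, 0.05 and 0 TPM. Slc15a4, a transporter needed for Tlr7 and Tlr9 signalling and singled out after its values were seen, had 33.2, 401 and 57.3 TPM for the whole gene but 23.7, 10.5 and 25.5 TPM over complete models. Its high value in replicate 2 lay in models not counted as complete, as for Tlr6, on 1386, 1481 and 2765 expected counts for the whole gene. The lengths of these models are not given here.

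TIR adaptors carry the signal onward, and 5 of 6 reached 1 TPM in every library, with a median of 29.6 TPM. Pik3ap1, an adaptor that links receptors to PI3 kinase, had 654, 617 and 772 TPM. Myd88, the adaptor of all these receptors except Tlr3, had 159, 101 and 156 TPM. Ticam2 (30.4, 30.9 and 32.7 TPM) and Ticam1 (27.4, 31.4 and 24.8 TPM), which serve Tlr4, and Tlr3 in the case of Ticam1, lay close to Tlr4 in level. Tirap, which brings Myd88 to surface receptors, had 9.06, 9.01 and 8.42 TPM, and Sarm1 was listed at 0 in each library. For each of these lists the share of genes at 1 TPM is to be read beside the 42.9% of all protein-coding genes.

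**Figure D5:**
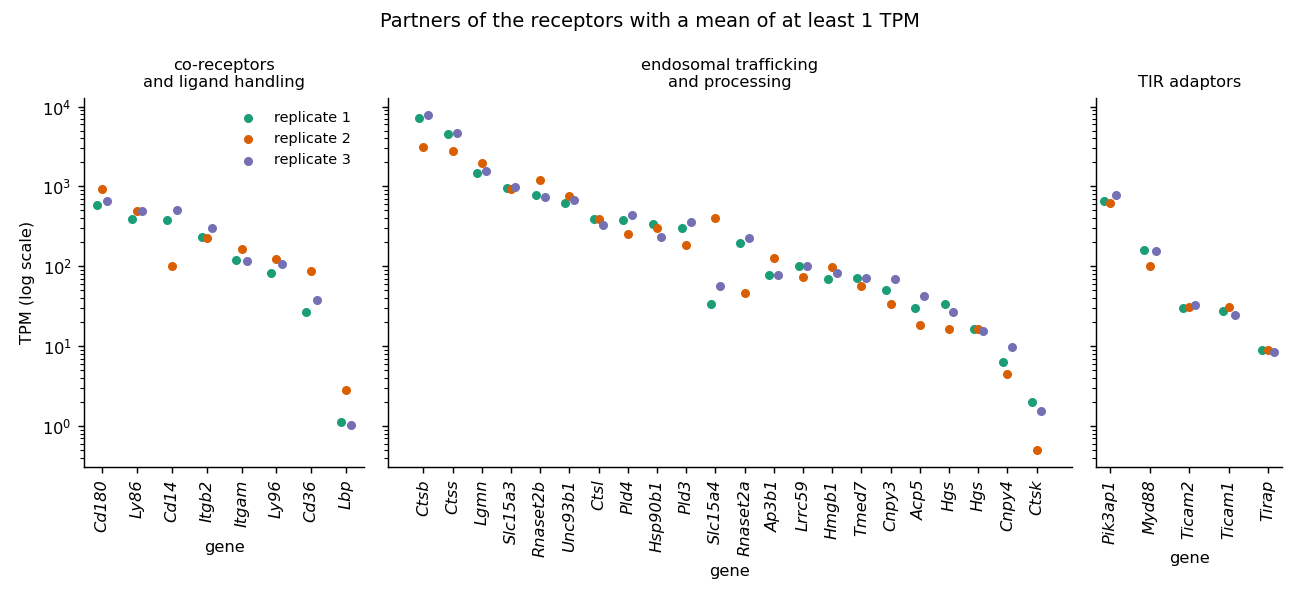
Levels in TPM on a log axis of the receptors' partners that averaged 1 TPM or more, in 3 lists (co-receptors and ligand handling, endosomal trafficking and processing, TIR adaptors), with the 3 libraries as coloured points. The proteases Ctsb, Ctss and Lgmn lie highest over all models, the adaptors Ticam1, Ticam2 and Tirap lie below 33 TPM, and replicate 2 is far below the others for Cd14 and far above them for Slc15a4.

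The genes most like the leading receptor of each class were sought by the Euclidean distance of log2(TPM + 0.1) over the 3 libraries. By mean Tlr8 led the endosomal class, through replicate 2, and Tlr7 led over complete models, in CPM and without replicate 2. For Tlr1 they were Cept1, a phospholipid-synthesising enzyme (distance 0.0771), the actin-regulating Marcks (0.129) and the proteasome subunit Psma4 (0.158). For Tlr8 they were the splicing-associated Dnajc8 (0.278), the tyrosine phosphatase Ptpn1 (0.318) and the co-chaperone St13 (0.340). The genes were picked on these same profiles, so their likeness is a description only.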

How the data were processed

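Each of 3 libraries of 1 group came with gene and transcript tables on mm10 with the GENCODE M21 annotation, per the deposited file notes. The authors deposited expected counts and TPM for genes and transcripts in a first quantification made from transcriptome alignments, and estimated counts and TPM for transcripts in a second one made from the reads. TPM divide counts by effective transcript length and sum to the same total in each library, so a transcript assigned to a short model gains TPM. The percent of its gene that each transcript takes was deposited with the first tables. The aligner, the tools' versions, strandedness and read length were not given in the sources used here. Entries that were no annotated gene took 0.0875%, 0.0464% and 0.0636% of the counts and were left out.

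Gene levels are deposited TPM. Models called complete hold at least 95% of the gene's longest coding sequence. Rounded expected counts were scaled by TMM (factors 1.01, 0.886 and 1.12) in edgeR 4.0.16, filtered by filterByExpr (11932 genes) and tested by a chi-square test and the quasi-likelihood fit. DESeq2 1.42.0 gave alternatives, limma 3.58.1 compared the quantifications with a pseudocount of 1, and ratios used a pseudocount of 0.1. Tests were tested on simulated data. Genes named were the 10 receptors, Tlr11 and Tlr12, the highest 4 and lowest 2 of each partner list and genes of 12 chosen pairs. The 3 nearest genes of the leading receptor of each class were also named. Of the dominant models and those with at least 10% of a gene, some were named and others were not. Members and lists were chosen with earlier results of these data known. Intervals of counts are exact Poisson intervals. Alternatives were another quantification, scaling, pseudocount or filter, and leaving out each replicate.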

Additional observations from a re-analysis of the deposited data

How the results depend on the processing

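The number of receptors at 1 TPM in every library was 9 in all alternatives run. The surface over endosomal log2 ratio of sums kept its sign throughout, at −0.47 to −0.76 with a replicate left out, and moved to −0.98 in CPM. That of medians, −1.36, moved to −1.79 in CPM and −0.78 for receptors with a mean of at least 1 TPM, where Tlr5 is left out. It was −1.72 over complete coding models, an alternative chosen after seeing the data. Separated neighbours in the order, 1 of 9, were 2 with the second quantification, 2 without mitochondrial and ribosomal RNA, 2 in CPM and 4 over complete models, and 2 to 4 with a replicate left out. The 6 separated pairs of 12 became 8 in CPM, 8 over complete models and 6 to 9 with a replicate left out. Tlr4 over Ly96 turned to 1.56 in CPM, which is not per length. Receptors varying beyond counting noise, 8 of 9, were 5 to 8 with a replicate left out, the lowest without replicate 2, when Tlr6, Tlr8 and Tlr9 dropped out. The counts of 0 receptors with excess variance and of 0 differing between quantifications stood in each alternative. No paired analysis between groups was possible because there is 1 group, and ratios and quantifications were compared within libraries. With 3 libraries no p-value was given for ratios, and Tlr5, at 1 count a library, sets the depth limit.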
